A study of Homo sapiens with 4 samples.

Results

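The genes described here are A20 and 8 other genes that encode brakes on inflammatory signalling: TNFAIP3 (the A20 gene), TNIP1, TNIP2, TNIP3, CYLD, ZC3H12A, IRAK3, TRAFD1 and ZFP36. They were chosen by symbol, and all 9 were found among the 24424 gene symbols of the count files. The RNA came from BEAS-2B, an immortalised human bronchial epithelial line, in 4 groups of 1 library each, and all carry the genotype label wild type. The control library came from cells with no treatment, and the LPS library from cells given LPS (bacterial lipopolysaccharide, the ligand of TLR4) for 2 h. The siOCLN+LPS library came from cells that received occludin siRNA for 24 h and then LPS for 2 h, occludin being a tight junction protein. The library labelled wtOCLN+LPS came from cells transfected for 24 h with wild-type occludin before the same LPS exposure, and no LPS dose is stated in the labels. The labels of the control and LPS libraries name no transfection, so an effect of transfection cannot be told apart from an effect of the siRNA or of occludin.

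LPS and cytokines such as TNF and IL-1 activate NF-kB through adaptor proteins that carry chains of ubiquitin. A20 edits and removes these chains, the TNIP proteins (ABINs) bind ubiquitin and bring A20 to its substrates, and CYLD is a separate deubiquitinase that cuts linear and lysine-63 chains. IRAK3 (IRAK-M) is a kinase-like protein that holds back the receptor-proximal MYD88 signal, and TRAFD1 (FLN29) is an interferon-inducible TRAF-binding repressor of the same pathways. The other brakes work on RNA: ZC3H12A (Regnase-1) is an endonuclease that cuts stem-loops in inflammatory mRNAs, and ZFP36 (tristetraprolin) binds AU-rich elements and recruits deadenylases.

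Total counts ran from 13867494 to 17500031 per library, and levels are given as CPM, the count per 1000000 counts of the library, where a single count equalled 0.0571 to 0.0721 CPM. A gene was tested in a comparison when it reached 1 CPM in either library, and it was called higher or lower when its log2(CPM + 1) values differed by 2-fold or more. Each group has 1 library, so no replicate check and no p-value exist, and the comparisons are between libraries rather than conditions. The 95% intervals cover counting error only. OCLN, the targeted gene, stood at 55.4 CPM in the control library, 50.4 in the LPS library, 21.0 in the siOCLN+LPS library and 29.7 in the library labelled wtOCLN+LPS. The last value goes against its label, so that library is called by its label and no direction of raised occludin is drawn from it. All 9 airway epithelial markers had counts in every library, with a summed level of 1288 to 2469 CPM. The sums over 11 leukocyte, 8 fibroblast and 6 endothelial markers were 5.15 to 17.9 CPM, 70.4 to 111 CPM and 1.72 to 2.45 CPM. The leukocyte marker PTPRC had 3 counts in control and 0 in the other libraries, and CD68 alone of its list reached 1 CPM. Of 8 epithelial markers tested against LPS, 5 were called higher in the siOCLN+LPS library and 4 in the other transfected one, and CD68 was called lower in both with library totals. Over all tested genes 3.32% were called higher in each comparison, and 3.92% and 3.69% lower. Of 2 fibroblast markers tested against LPS, PDGFRB, at 13.8 CPM in LPS, was called higher in both at 49.4 and 55.4 CPM. The other, COL1A1, was not called, at 62.7 CPM in LPS and 56.1 and 55.2 CPM in the transfected libraries. The part of these shifts in the results against LPS was not tested. In bulk RNA, fewer cells of a type and less RNA per cell cannot be told apart.

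The 9 genes fell into groups of unlike behaviour, and the plot of their levels shows each. TNFAIP3, TNIP1, ZC3H12A and IRAK3 were called higher with LPS. That is 4 of the 8 members tested, and none was called lower, where 1.6% of the 13551 genes tested were called higher and 0.207% lower. The median log2 ratio of the 8 tested members was 0.88, against -0.09 over all tested genes. TNIP2 and CYLD stood higher by less than 2-fold, TRAFD1 was level, and ZFP36 stood lower by less than 2-fold. TNIP3 was not tested, because no library reached 1 CPM.

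**Figure D1:**
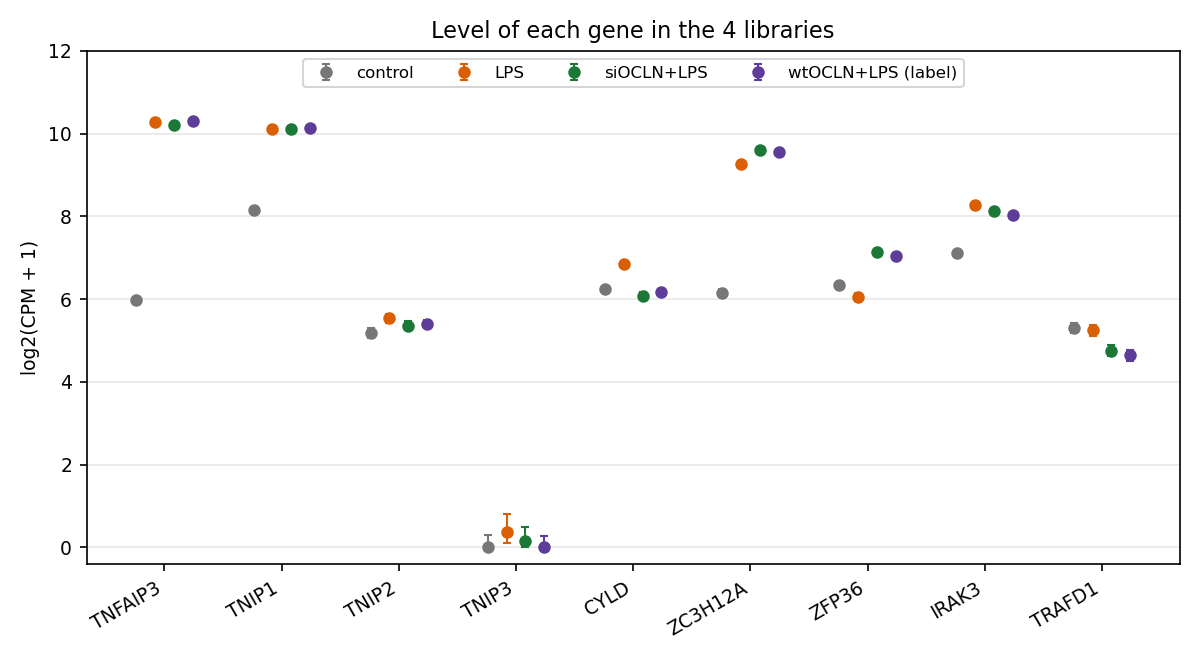
Level of each of the 9 genes (log2(CPM + 1), vertical axis) in the 4 libraries, 1 point per library with a 95% counting interval. TNFAIP3, TNIP1, ZC3H12A and IRAK3 have the grey control point well below the other 3, ZFP36 has the LPS point lowest, and TNIP3 lies near 0.

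TNFAIP3, the gene of the ubiquitin-editing enzyme A20, had the largest ratio of the 9. Its level was 61.6 CPM (95% interval 57.8 to 65.6) in the control library, 1242 (1224 to 1261) in the LPS library, 1183 (1167 to 1199) in the siOCLN+LPS library and 1256 (1240 to 1273) in the library labelled wtOCLN+LPS. The control library was low and the 3 LPS-treated libraries were high, with no overlap. LPS against control gave a 20.2-fold ratio (18.9 to 21.5), the 13th highest log2 ratio among the tested genes, and TNFAIP3 moved from rank 4388 to rank 41 by CPM within its library. Against LPS the ratio was 0.952 (0.933 to 0.972) in the siOCLN+LPS library and 1.01 (0.991 to 1.03) in the library labelled wtOCLN+LPS. The siOCLN+LPS ratio lay below 1 with library totals only. Its log2 value was -0.07 with library totals and up to 0.08 with other scalings. Genes on the opposite strand overlap TNFAIP3, CYLD and IRAK3 in GENCODE 29, and how strand was counted is not stated, so these 3 levels may hold reads of their neighbours.

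TNIP1 and TNIP2 encode A20-binding partners, and their levels differed in kind. TNIP1 was at 284 CPM (276 to 292) in the control library, 1100.4 (1083 to 1118) in the LPS library, 1107 (1091 to 1122) in the siOCLN+LPS library and 1117 (1101 to 1133) in the library labelled wtOCLN+LPS. It was 3.88-fold higher in LPS than in control (3.75 to 4.01), and the intervals of the 3 LPS-treated libraries overlapped. TNIP2 was at 35.4 CPM (32.5 to 38.4) in the control library, 45.5 (42.0 to 49.2) in the LPS library, 39.9 (37.0 to 43.0) in the siOCLN+LPS library and 41.3 (38.3 to 44.4) in the library labelled wtOCLN+LPS. Its LPS ratio was 1.29 (1.15 to 1.44), and all 3 LPS-treated libraries lay within 2-fold of control. Against LPS the TNIP2 ratios were 0.878 (0.787 to 0.979) and 0.907 (0.814 to 1.01), and the sign of the second on the log2 scale turned with scaling. TNIP3, the third member of the ABIN family, had 0 counts in control, 4 in LPS, 2 in the siOCLN+LPS library and 0 in the library labelled wtOCLN+LPS. A count of 0 in control allows up to 0.189 CPM (3 counts), so no difference in TNIP3 was detectable at this depth.

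Stretches of promoter are printed for TNFAIP3, TNIP1, CYLD and TNIP3 because they hold matches to a motif searched. Of these genes, TNFAIP3 and TNIP1 were called higher in LPS. The table of RefSeq promoters (build GRCh38.p14, 250 bases before to 50 after a start site) held 13 windows for 8 of the 9 genes, leaving out TRAFD1. Each was searched on both strands for the NF-kB binding site known as the kB consensus, for the interferon response core (GAAA, any 2 bases, GAAA) and for the serum response element core. The kB consensus is 10 bases long, and 11.3% of all 35116 promoters in the table held it. Matches are in capitals in these stretches of 30 bases, each written 5′ to 3′ on the strand of its gene:
TNFAIP3, chr6:137867188-137867217, plus strand: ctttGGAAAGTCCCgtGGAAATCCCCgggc
TNIP1, chr5:151081057-151081086, minus strand: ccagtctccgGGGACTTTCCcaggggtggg
CYLD, chr16:50741887-50741916, plus strand: ttgacagagcGGAAAGTCCCttcggccggc
TNIP3, chr4:121164363-121164392, minus strand: gagacatcctGGGAAATCCCtatttggaag
The TNFAIP3 stretch holds 2 matches, 46 to 67 bases upstream of its start site. The 10 capitals of the TNIP1 stretch, one form of the consensus, also stand on the opposite strand of the TNFAIP3 and CYLD stretches, and 0.191% of all promoters held them on either strand. This form was searched for outside the plan, besides the motifs named above, so its share is no test. The TNIP1 match lies 33 to 42 bases upstream of the start and the CYLD match 180 to 189 bases upstream of one of 3 CYLD starts. A second TNIP3 window and a second CYLD window held 1 match each. No match was found in the windows of TNIP2, ZC3H12A, IRAK3 or ZFP36. Genes with and without a match were thus found among those called higher with LPS, and TNIP3, with matches, stayed near 0 counts. None of the 13 windows held the interferon response core, found in 3.57% of promoters, or the serum response element core, found in 1.29%. A match is a run of letters and not a measured binding site.

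CYLD, the deubiquitinase that acts beside A20, was highest in the LPS library. It stood at 74.4 CPM (70.2 to 78.8) in the control library, 114 (108 to 120) in the LPS library, 66.9 (63.1 to 70.8) in the siOCLN+LPS library and 71.0 (67.1 to 75.0) in the library labelled wtOCLN+LPS. LPS lay apart from the other 3, whose values were close to each other. The LPS ratio to control was 1.53 (1.42 to 1.65), and the ratios to LPS were 0.587 (0.544 to 0.633) and 0.623 (0.577 to 0.671) in siOCLN+LPS and the library labelled wtOCLN+LPS. None of these passed 2-fold. Against control the log2 ratio of CYLD was -0.15 and -0.07 in the transfected libraries with library totals, but above 0 with the other 3 scalings. CYLD has a long transcript of 8503 bases. With the trend of the ratio with transcript length removed, its log2 ratios to LPS were -0.68 and -0.61, in place of -0.76 and -0.68.

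ZC3H12A, the RNA-cutting brake, was also low in control and high after LPS. It was at 70.4 CPM (66.3 to 74.6) in the control library, 616 (603 to 629) in the LPS library, 773 (760 to 786) in the siOCLN+LPS library and 753 (740 to 766) in the library labelled wtOCLN+LPS. Its LPS ratio to control was 8.75 (8.22 to 9.32), the 27th highest log2 ratio of the comparison. It stood above the LPS library in both transfected libraries, by 1.26-fold (1.22 to 1.29) and 1.22-fold (1.19 to 1.26), which is beyond counting error but within 2-fold. Both ratios stayed above 1 with all 4 scalings.

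ZFP36, the AU-rich element binding brake, went the other way. Its level was 79.5 CPM (75.2 to 84.0) in the control library, 65.0 (60.8 to 69.4) in the LPS library, 139 (133 to 144) in the siOCLN+LPS library and 131 (125 to 136) in the library labelled wtOCLN+LPS. LPS was the lowest library, control lay somewhat above it, and both transfected libraries lay above control. LPS against control was 0.817 (0.750 to 0.891), and this stayed below 1 with all 4 scalings. The siOCLN+LPS library was 2.14-fold above LPS (1.98 to 2.31), and the library labelled wtOCLN+LPS 2.01-fold (1.86 to 2.18). On the log2(CPM + 1) scale these were 1.08 and 0.998, so that only the first was called. With TMM scaling they were 1.23 and 1.16, and both were called, as with median ratio and upper quartile scaling. With the trend with transcript length removed they were 0.98 and 0.92, and neither was called. Against control the ratios were 1.75 (1.63 to 1.87) and 1.65 (1.54 to 1.76).

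IRAK3 stood at 138 CPM (132 to 144) in the control library, 307 (298 to 316) in the LPS library, 277 (269 to 285) in the siOCLN+LPS library and 261 (254 to 269) in the library labelled wtOCLN+LPS. Control was low and LPS highest, with a ratio of 2.22 (2.11 to 2.34). IRAK3 is best known from monocytes and macrophages. The summed level of the 11 leukocyte markers was 17.9 CPM without and 17.7 CPM with LPS, of which CD68 made up 16.6 CPM in each, and it was 5.15 and 8.06 CPM in the transfected libraries. The part of such cells in the IRAK3 levels was not tested. Against LPS the transfected libraries had ratios of 0.901 (0.865 to 0.939) and 0.852 (0.817 to 0.889). Those log2 ratios, -0.15 and -0.23, shrank to -0.003 and -0.06 at the scaling that brought each nearest to 0.

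TRAFD1 was at 38.5 CPM (35.5 to 41.7) in the control library, 36.8 (33.7 to 40.2) in the LPS library, 25.9 (23.6 to 28.4) in the siOCLN+LPS library and 24.1 (21.8 to 26.5) in the library labelled wtOCLN+LPS. Control and LPS overlapped, and both transfected libraries lay below them. The LPS ratio of 0.957 (0.849 to 1.08) held 1 within its interval, and its log2 sign changed with scaling. The ratios to LPS were 0.703 (0.618 to 0.800) and 0.653 (0.572 to 0.744), within 2-fold and below 1 with all 4 scalings. Although TRAFD1 is known as an interferon-inducible gene, it was lower in the libraries where 15 and 20 of 20 interferon-stimulated genes were called higher than in LPS. In each of these comparisons 3.32% of all tested genes were called higher. The antiviral GTPase gene MX1 was at 16.7 CPM in LPS, 144 CPM in the siOCLN+LPS library and 488 in the library labelled wtOCLN+LPS. In LPS against control 0 of 18 tested genes of that list were called (median log2 ratio -0.12), or 1 with each of the other 3 scalings. With library totals 1.6% of all tested genes were called higher there and 0.207% lower. TMM scaling called 242 of 13410 tested genes higher.

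Levels can be set against each other only per transcript length, here CPM per kilobase of the longest GENCODE 29 coding transcript. In control TNIP1 led at 96.7 and ZFP36 followed at 44.5, ZC3H12A at 26.2, TNIP2 at 17.6, IRAK3 at 15.9, TNFAIP3 at 13.0, TRAFD1 at 12.1 and CYLD at 8.75. In LPS the order was TNIP1 (375), TNFAIP3 (262), ZC3H12A (229), ZFP36 (36.4), IRAK3 (35.4), TNIP2 (22.7), CYLD (13.4) and TRAFD1 (11.6). TNFAIP3 thus moved up the order from the sixth place to the second, and ZFP36 moved from the second to the fourth. The counting intervals of TNIP2 and IRAK3 and those of TNFAIP3 and TRAFD1 overlapped in control, and those of ZFP36 and IRAK3 overlapped in LPS. In siOCLN+LPS ZC3H12A (288) stood above TNFAIP3 (249.8), and in the library labelled wtOCLN+LPS the values were 280.4 and 265. Summed over the 9 genes, the level was 782 CPM in the control library, 3527 in the LPS library, 3610.4 in the siOCLN+LPS library and 3654 in the library labelled wtOCLN+LPS. TNFAIP3 made up 7.88% of that sum in control and 35.2% in LPS, while CYLD made up 9.52% and 3.23%.

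In the comparisons with LPS, both of which use the same LPS library, few members were called. ZFP36 was the only 1 of 8 tested members called higher in siOCLN+LPS, with none called lower, where 3.32% of all genes tested were called higher and 3.92% lower. None of 8 was called in the library labelled wtOCLN+LPS, where 3.32% were called higher and 3.69% lower. The median log2 ratio of the tested members was -0.11 and -0.06, against -0.13 and -0.15 over all tested genes with library totals. TMM scaling put the all-gene medians at 0.01 and the members' at 0.04 and 0.10, so the sign of the members' median turned with scaling. Of all genes called, 45.9% and 47.4% were higher with library totals and 61.5% and 64.9% with TMM scaling. Against control, TNFAIP3, TNIP1 and ZC3H12A were called higher in each transfected library, 3 of 8 with none lower, where 3.94% and 3.91% of all genes were called higher and 5.44% and 4.91% lower. IRAK3 lay at the threshold there, at log2 ratios of 0.998 and 0.92. Of all genes called against control, 42.0% and 44.4% were higher with library totals and 68.5% and 71.0% with TMM scaling.

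**Figure D2:**
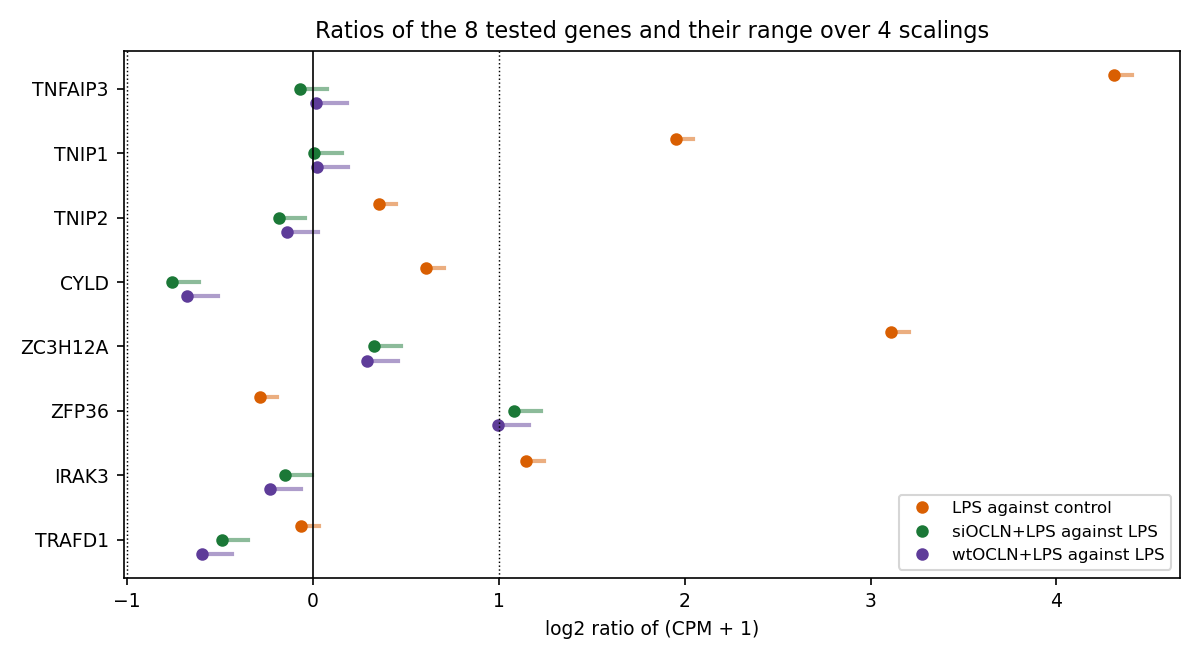
Log2 ratio of (CPM + 1) of the 8 tested genes (horizontal axis) in 3 comparisons. Points use library totals, bars span library total, TMM, median ratio and upper quartile scaling, and dotted lines mark 2-fold. TNFAIP3 and TNIP1 lie far right for LPS against control and near 0 against LPS, while ZFP36 lies below 0 for LPS against control and near 1 against LPS.

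The transfected libraries did not differ by 2-fold in any of the 8 tested members. Of 8 tested genes 0 were called between siOCLN+LPS and the library labelled wtOCLN+LPS, where 0.0763% of 13109 genes were called higher and 0.29% lower. The ratios of siOCLN+LPS to the library labelled wtOCLN+LPS ran from 0.942 (0.924 to 0.960) for TNFAIP3 to 1.08 (0.941 to 1.23) for TRAFD1. The intervals of TNIP1, TNIP2, CYLD and TRAFD1 held 1. Those of TNFAIP3, ZC3H12A, IRAK3 and ZFP36 did not, by small margins: ZC3H12A was at 1.03 (1.002 to 1.05) and ZFP36 at 1.06 (1.002 to 1.12). By contrast 12 of 20 interferon-stimulated genes were called lower in siOCLN+LPS in this comparison (median log2 ratio -1.14).

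Ratios of counts between genes of the same library do not depend on scaling. In control there were 0.828 TNFAIP3 counts for each CYLD count (0.760 to 0.902), in LPS 10.9 (10.3 to 11.5), in siOCLN+LPS 17.7 (16.7 to 18.8) and in the library labelled wtOCLN+LPS 17.7 (16.7 to 18.8). TNFAIP3 counts thus stood higher against CYLD counts in LPS than in control, and higher again in the transfected libraries. Between LPS and those libraries CYLD went from 114 CPM to 66.9 and 71.0, while TNFAIP3 was at 1242, 1183 and 1256 CPM. TNFAIP3 counts per TNIP1 count were 0.217 in control, 1.13 in LPS, 1.07 in the siOCLN+LPS library and 1.12 in the library labelled wtOCLN+LPS, so this pair kept nearly 1 ratio in all 3 LPS-treated libraries. ZC3H12A counts per ZFP36 count were 0.885 (0.816 to 0.960) in control, 9.48 (8.85 to 10.2) in LPS, 5.57 (5.33 to 5.82) in the siOCLN+LPS library and 5.75 (5.50 to 6.02) in the library labelled wtOCLN+LPS. This last ratio was thus highest in the LPS library. The transcripts of each pair differ in length, so these ratios compare libraries and do not give relative numbers of transcripts.

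**Figure D3:**
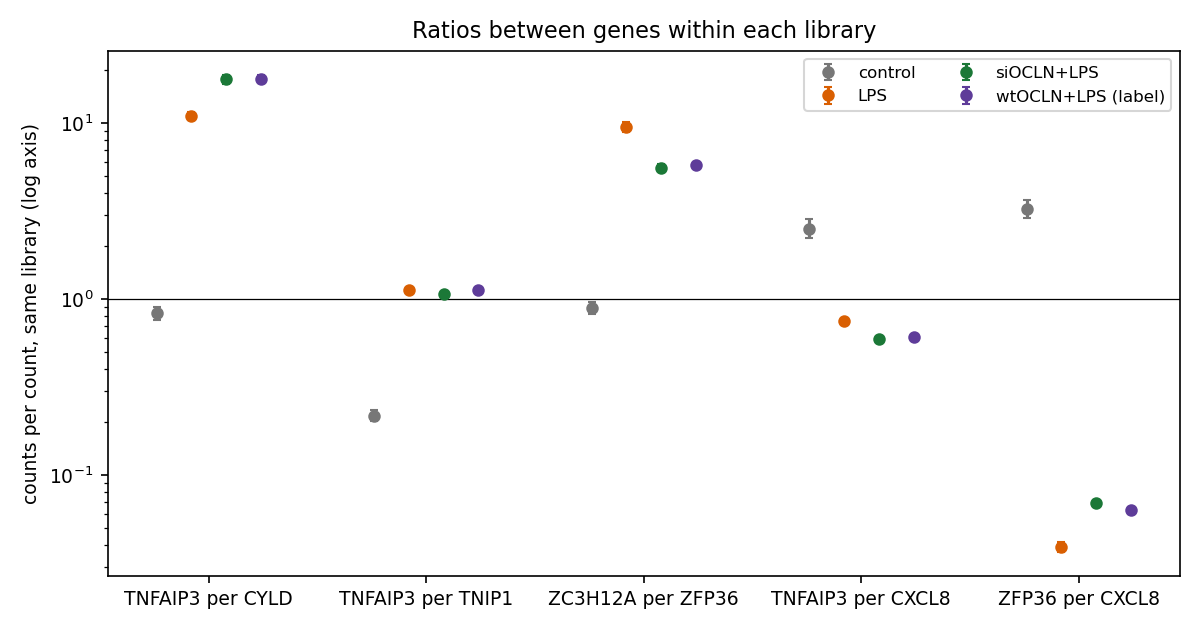
Counts of 1 gene per count of another in the same library (log axis), with 95% counting intervals, for 5 pairs. TNFAIP3 per CYLD goes from 0.828 in control to 17.7 in both transfected libraries, while ZFP36 per CXCL8 is lowest in LPS at 0.0392.

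The RNAs that ZFP36 and ZC3H12A act on were read next, from a list of 18 mRNAs reported as targets of either protein. Of the 17 tested, 14 were called higher in LPS than in control and none lower, with a median log2 ratio of 4.32. Over all tested genes 1.6% were called higher in that comparison. The list was chosen with earlier results of these data known, so the count is no test of either protein. The chemokine genes CXCL8 and CXCL1, whose products attract neutrophils, went from 24.5 to 1657 CPM and from 22.8 to 962 CPM. In the transfected libraries, where ZFP36 and ZC3H12A stood above LPS, the median log2 ratio of the 17 targets to LPS was 0.23 and 0.29. Called higher than LPS were CCL2 in both and IL6 in the library labelled wtOCLN+LPS, and PIM1, a kinase gene, was called lower in siOCLN+LPS. Among all tested genes 3.32% were called higher in each comparison, and 3.92% and 3.69% lower. With TMM scaling 4 targets were called higher in each, in place of 1 and 2. Over all tested genes TMM scaling called 603 of 13472 higher in siOCLN+LPS and 618 of 13458 in the library labelled wtOCLN+LPS. IL6 was at 136 CPM in LPS, 269 CPM in the siOCLN+LPS library and 335 in the library labelled wtOCLN+LPS. There were 3.24 ZFP36 counts for each CXCL8 count in control, 0.0392 in LPS, 0.0694 in the siOCLN+LPS library and 0.0630 in the library labelled wtOCLN+LPS.

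The AU-rich elements of a few listed targets and of ZFP36, which is not on the list, are printed because they are the kind of letters that ZFP36 binds. The motif searched was TATTTAT on the RNA's own strand, overlapping matches counted, in the 3′ untranslated region of the longest GENCODE 29 coding transcript (build GRCh38). Windows of 28 bases with the most matches are given 5′ to 3′ on the strand of the gene, with matches in capitals:
TNF, chr6:31577998-31578025, plus strand: gatTATTTATTATTTATTTATTATTTAT
CXCL8, chr4:73743107-73743134, plus strand: ttaaccTATTTATTATTTATgTATTTAT
CXCL2, chr4:74097589-74097616, minus strand: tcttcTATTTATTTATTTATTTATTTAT
ZFP36, chr19:39409186-39409213, plus strand: gcccttTATTTATgacgacttTATTTAT
Of the 18 listed targets 16 held TATTTAT and 12 the longer TTATTTATT, against 36.4% and 9.68% of 10631 genes at 5 CPM or more in some library. The list includes reported targets of ZFP36, which binds such elements, so a high share was built into it and tests nothing. For TNF, which held 8 copies of TATTTAT in 802 bases, 23.8% of genes with a region within 10% of that length held 1 or more. Among the 9 brakes, ZFP36 itself held 3 copies, CYLD 4, TNFAIP3 2 and IRAK3 1, while TNIP1, TNIP2, TNIP3, ZC3H12A and TRAFD1 held none. For ZFP36 23.3% of genes of like region length held a copy, for TNFAIP3 42.5%, for CYLD 72.6% and for IRAK3 75.9%. The regions of CYLD and IRAK3 are long, at 5430 and 6454 bases. CCL2, one of the listed targets without a copy, was the target farthest above LPS in both transfected libraries, at 5.45-fold (5.22 to 5.69) and 5.31-fold (5.09 to 5.54). The TNF ratio of LPS to control, 39.5 (10.5 to 333), rests on 2 and 69 counts.

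Relatives of ZFP36 and ZC3H12A, and other factors of RNA decay, did not move as a block. Over all tested genes 1.6% were called higher in LPS than in control. Of 16 of these factors tested there, ZC3H12C (Regnase-3) alone was called, from 144 to 427 CPM (2.97-fold, 2.83 to 3.12). It then stood at 237 CPM in the siOCLN+LPS library and 247 in the library labelled wtOCLN+LPS. ZFP36L2, a paralog of ZFP36 with the same kind of zinc fingers, was at 442 CPM in the control library, 374 in the LPS library, 1288 in the siOCLN+LPS library and 1329 in the library labelled wtOCLN+LPS. Like ZFP36 it was lowest in LPS and highest in the transfected libraries, there 3.44-fold (3.34 to 3.55) and 3.55-fold (3.45 to 3.66) above LPS. ZFP36L1, the third paralog, was at 328, 499, 655 and 668 CPM in the same order of libraries. DCP2, the decapping enzyme gene, and ZC3H12B were called lower than LPS in both transfected libraries, DCP2 at ratios of 0.437 (0.409 to 0.467) and 0.403 (0.376 to 0.431). Among all tested genes 3.92% and 3.69% were called lower. ZC3H12B rests on 19 to 90 counts, and in the library labelled wtOCLN+LPS 1 gene of the list, in place of 2, was called lower with each of the other 3 scalings. The list's medians against LPS were -0.23 and -0.16, of which the second lay at 0.01 with TMM and median ratio scaling.

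Partners of A20 and CYLD, among them ITCH, TAX1BP1, RNF11, OPTN and the linear ubiquitin ligase subunits, stayed within 2-fold in all 3 comparisons, 13 of 13 tested. Over all tested genes, 1.6%, 3.32% and 3.32% were called higher and 0.207%, 3.92% and 3.69% lower. No call among 13 genes lies near these shares. The partners' median log2 ratio was -0.11 in LPS against control. It was -0.32 and -0.29 against LPS, below the medians of all tested genes at -0.13 and -0.15. OTULIN, which cuts linear ubiquitin chains, was at 82.4 CPM in the control library, 68.9 in the LPS library, 44.8 in the siOCLN+LPS library and 44.9 in the library labelled wtOCLN+LPS. The OTU family of deubiquitinases, to which A20 belongs, had 0 of 12 tested members called in LPS against control. TNFAIP3, which is not counted in that list, was the OTU gene at 20.2-fold. Against LPS the family medians were -0.55 and -0.45. The trend of the ratio with transcript length was not removed from the medians of either list. Transcripts of the partners ran from 1765 bases (SHARPIN) to 8872 (OTUD7B). OTUD1 and OTUD3 were called lower in the library labelled wtOCLN+LPS and lay just short of 2-fold in siOCLN+LPS, and neither was called there with TMM, median ratio or upper quartile scaling.

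Of 25 signalling proteins on which the brakes act, BIRC3, IRAK2 and TRAF1 were called higher in LPS than in control (list median 0.04). Over all tested genes 1.6% were called higher there, and 3.32% in each comparison of a transfected library with LPS. BIRC3, a ubiquitin ligase of TNF receptor complexes, went from 70.9 to 934 CPM (13.2-fold, 12.4 to 14.0). IRAK2, a kinase of the MYD88 complex that IRAK3 restrains, went from 7.49 to 69.7 CPM (9.30-fold, 7.68 to 11.3). In the transfected libraries BIRC3 was higher still, at 1300 and 1345 CPM, while IRAK2 was at 48.0 and 47.7 CPM. Against LPS no gene of the list was called in siOCLN+LPS with library totals and 1 with TMM scaling, which called 603 of 13472 tested genes higher. The adaptor MYD88 alone was called higher in the library labelled wtOCLN+LPS (2.64-fold, with a lower 95% bound of 2.32). The medians there were -0.21 and -0.14, and the second was 0.03 with TMM scaling.

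Of 28 other brakes on NF-kB, TLR and cytokine signalling, 24 were tested in LPS against control and 4 were called higher: NFKBIA, NFKBIE, NFKBID and SOCS3. With each of the other 3 scalings 5 were called, and TMM scaling called 242 of 13410 tested genes higher. With library totals 1.6% of all tested genes were called higher there, and 3.32% in each comparison of a transfected library with LPS. NFKBIA, the IkB-alpha gene, went from 66.6 to 699.9 CPM (10.5-fold, 9.86 to 11.2). The list's median log2 ratio was -0.10, near that of all genes, and the MAP kinase phosphatase gene DUSP1 was at 373 CPM in both libraries. Against LPS the medians were 0.04 and 0.12. BCL3, an atypical IkB, was called higher in both transfected libraries at 2.16-fold (2.04 to 2.28) and 2.19-fold (2.07 to 2.32), as was CISH on 36 and 55 counts against 7 in LPS. USP18, which removes ISG15 and restrains the interferon receptor, was called higher in the library labelled wtOCLN+LPS alone, at 4.31-fold (3.56 to 5.24), and its ratio in siOCLN+LPS was 1.69 (1.36 to 2.10). ATF3, a transcriptional repressor, was called lower in both, and in the library labelled wtOCLN+LPS that call was lost with the other 3 scalings.

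**Figure D4:**
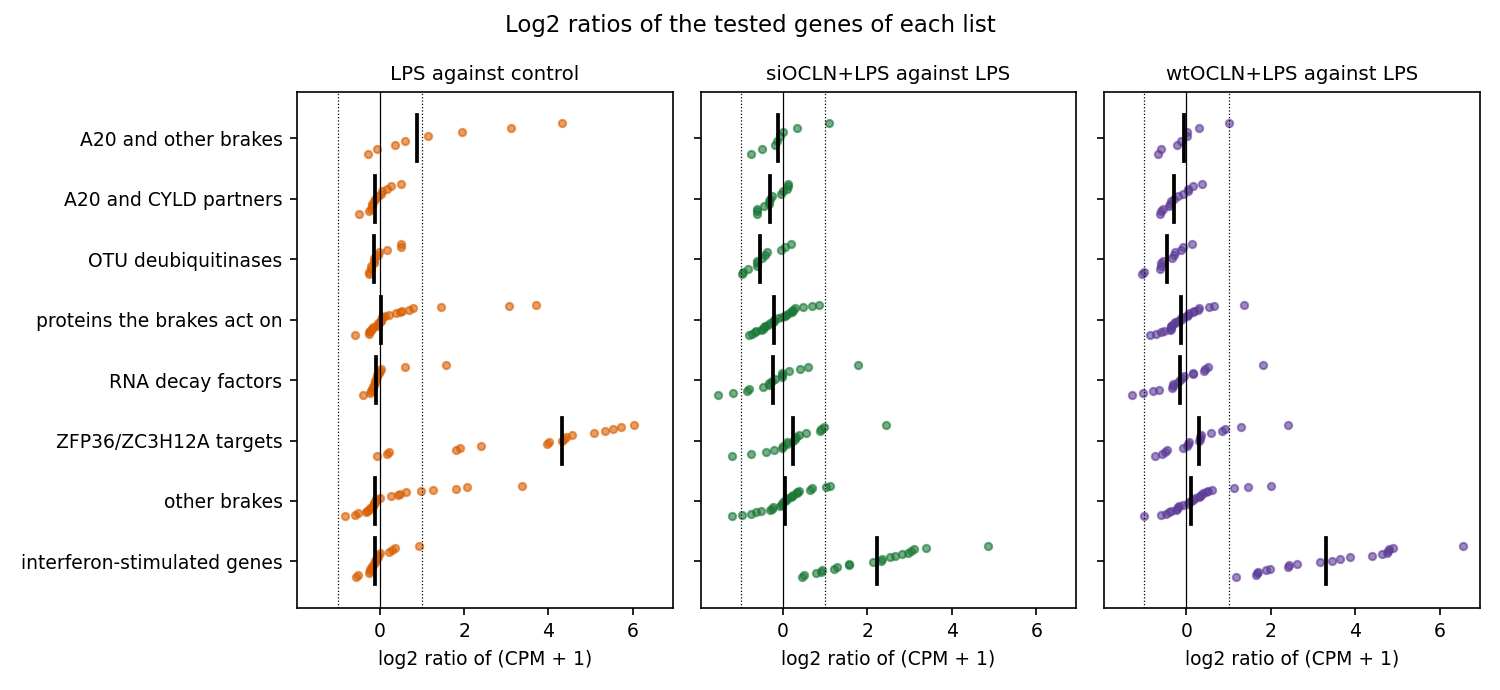
Log2 ratio of (CPM + 1) of every tested gene in 8 lists (horizontal axis) for 3 comparisons, with the median as a black bar and 2-fold as dotted lines. The 8 tested brakes spread from below 0 to 4.31 in LPS against control, and the interferon-stimulated genes lie to the right in both comparisons of a transfected library with LPS.

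Each member at 5 CPM or more was set against 11409 other genes at that level by the Euclidean distance between log2(CPM + 1) values centred over the 4 libraries. The genes nearest to TNFAIP3 were IL1B, IL1A and CXCL2, at distances of 0.157, 0.228 and 0.314. IL1B had 3 counts in control (0.189 CPM, against 24.4 CPM in LPS), so its nearness depends on the 1 added to each CPM. Nearest to ZC3H12A were ICAM1 (0.137), SAA2 and NFKBIA, and nearest to TNIP1 were EFNA1 (0.099), IER3 and NFKB2. IRAK3 lay nearest to RELB (0.038), DRAM1 and NFATC1, and CYLD to NCR3LG1, ARHGEF2 and SPHK1. ZFP36 lay nearest to C10orf10 (0.035), KIAA0040 and C1QTNF5, TNIP2 to ZKSCAN7, IGSF3 and SKIV2L, and TRAFD1 to HDHD3, EDEM1 and RCHY1. Within a distance of 0.25, chosen after values were seen, lay 2 genes for TNFAIP3, 1 for ZC3H12A, 7 for TNIP1 and 17 for IRAK3. The same distance took in 71 genes for CYLD, 177 for ZFP36, 535 for TNIP2 and 2179 for TRAFD1. Because the log2 values were centred but not scaled, these numbers follow the size of each gene's ratios and say nothing more of how common a pattern is.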

How the data were processed

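RNA sequencing counts of 4 BEAS-2B libraries, 1 per group, were used. The authors deposited whole-number counts of reads per gene symbol. The submitters' processing notes name TopHat, Cufflinks and hg19, with no version or role. The kit was directional, but how strand was counted, and with which tool and annotation, is not given in the sources used here. Opposite-strand genes overlap TNFAIP3, CYLD and IRAK3, so reads of these could not be told apart from theirs. Groups came from the treatment in the labels. Counts were divided by library totals to give CPM, and ratios were taken on log2(CPM + 1). A gene was tested where either library reached CPM 1, with a call at 2-fold, and no p-values were computed. Folds are CPM ratios without a pseudocount with exact Clopper-Pearson 95% intervals, and intervals of CPM levels are exact Poisson ones. All 9 members were named, as were OCLN, up to 4 genes per list with the largest absolute log2 ratio at CPM 5 or more, and the 3 genes nearest in pattern to each member. DUSP1, CISH, PTPRC, the genes of the closing observations and any other gene given outside that rule, were chosen after their values were seen. The members and the 11 lists were chosen with earlier results of these data known. Other settings were pseudocounts of 0.1 and 5, no filter or CPM 5, thresholds of 1.5-fold and 3-fold, TMM (edgeR 4.0.16), median ratio and upper quartile scaling and, added after seeing the data, removal of the length trend (lowess, fraction 0.3). The steps were tested on simulated data. Python 3.11.15, NumPy 2.4.6, SciPy 1.17.1, pandas 2.3.3, statsmodels 0.14.6 and R 4.3.3 were used.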

Additional observations from a re-analysis of the deposited data

How the results depend on the processing

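In LPS against control 4 members were called, with 5 at 1.5-fold (CYLD added), 3 at 3-fold (IRAK3 lost) and 4 under the other alternatives run. Between the transfected libraries it was 0 under all alternatives run. For siOCLN+LPS against LPS the number called was 1, or 2 at 1.5-fold (CYLD added), 0 at 3-fold and 0 with the length trend removed. For the library labelled wtOCLN+LPS against LPS it was 0, but 1 (ZFP36) with a pseudocount of 0.1 and with TMM, median ratio and upper quartile scaling, and 3 at 1.5-fold. For siOCLN+LPS against control it was 3, but 5 at 1.5-fold and with TMM and median ratio scaling (IRAK3 and ZFP36 added), and 4 (IRAK3 added) with a pseudocount of 0.1, upper quartile scaling and the length trend removed. For the library labelled wtOCLN+LPS against control it was 3, but 6 at 1.5-fold and 4 (IRAK3 added) with TMM, median ratio and upper quartile scaling. At 1.5-fold the counts over all tested genes, higher and lower, were 467 and 379 of 13551 in LPS against control. Against LPS they were 1227 and 2061 of 13505 in siOCLN+LPS, and 1159 and 2036 of 13493 in the library labelled wtOCLN+LPS. Against control they were 1210 and 2931 of 13584 in the siOCLN+LPS library and 1151 and 2933 of 13569 in the other. Between the transfected libraries they were 99 and 156 of 13109. The length trend was removed as an alternative chosen after seeing the data. With TMM scaling the counts over all tested genes were 618 and 334 of 13458 in the library labelled wtOCLN+LPS against LPS. Against control they were 792 and 365 of 13479 in siOCLN+LPS and 790 and 322 of 13470 in the library labelled wtOCLN+LPS. The cause of each change in the number of members called was not tested. Of 288 log2 ratios of the 8 tested members recomputed, 189 stayed within the counting interval of the ratio, 99 moved beyond it and 0 called values changed sign. Among 48 ratios, 5 that were not called changed sign with scaling (TNFAIP3, TNIP2 and TRAFD1 in 1 comparison each, CYLD in 2). Depth limits TNIP3. No paired analysis was possible because each group has 1 library and the labels carry no replicate numbers.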

Other observations

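Some brakes outside the 9 genes were at or near 0 in these cells. The decoy receptor gene IL1R2 had 0 counts in all 4 libraries, the receptor antagonist gene IL1RN had 1 count in LPS and 0 elsewhere, and SOCS1 had 1, 3, 11 and 8 counts in control, LPS, siOCLN+LPS and the library labelled wtOCLN+LPS. TSC22D3, which encodes the glucocorticoid-induced leucine zipper protein, had the lowest log2 ratio of its list in LPS against control (-0.82), from 74.7 to 41.8 CPM, and stood at 53.3 and 64.3 CPM in the transfected libraries. TOLLIP, an adaptor that restrains TLR signalling, stood at 83.4 CPM without and 78.8 CPM with LPS, and at 54.5 and 58.5 CPM in the transfected libraries. These genes were chosen after their values were seen.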
